A study of Mus musculus with 16 samples.

Results

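Livers in which both MET and EGFR had been targeted were compared with livers in which neither had, on 4 arrays of the arm MET_KO_canertinib and 4 of the arm MET_FLOX, 8 of the 16 arrays of the study. The members were taken by their labels, and each MET_KO_canertinib array was paired with the MET_FLOX array of the same day, at days 0, 2, 7 and 14 after partial hepatectomy, the surgical removal of part of the liver. MET_KO_canertinib mice had exon 16 of Met deleted through a tamoxifen-inducible system and were fed canertinib, which inhibits the kinases of the EGFR family, in their diet at a target of 80 mg/kg. MET_FLOX_canertinib mice received the drug without the deletion, MET_KO mice the deletion without the drug, and MET_FLOX mice neither. The labels give all 4 arms the same genotype field, floxed Met with the ERCre transgene (Metff/ff:ERCre+/+), on a 129SV/C57BL/6 background. They do not say whether the flox arms received tamoxifen, nor the sex or age of the mice, nor whether the RNA on an array came from 1 mouse or several. Each arm had 1 array per day, and p-values rest on the spread between arrays, which may be technical.

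MET is the receptor of hepatocyte growth factor, and EGFR binds EGF, TGF-alpha and related ligands. Both are tyrosine kinases that signal through the RAS-MAPK and PI3K-AKT cascades, and after partial hepatectomy both are known to drive resting hepatocytes into the cell cycle. In rodents hepatocytes pass through DNA synthesis and mitosis in the first days, while the liver keeps up its metabolic and secretory work, and growth then stops once liver mass is restored.

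The deposited signals are MAS5 intensities per probe set, and the values below are the same signals after quantile normalization, which gives every array the same distribution with a median of 220.1. Before that step the array medians fell into separate sets, with MET_FLOX and MET_KO at days 0, 2 and 7 below 216.35 and the other 10 arrays above it. No label names these sets. MET_KO_canertinib and MET_FLOX thus lay in different sets at days 0, 2 and 7 and in the same set at day 14. The Gapdh 3' to 5' signal ratio, a measure of RNA quality, ran from 0.950 to 1.35 in MET_KO_canertinib and from 0.776 to 0.869 in MET_FLOX. It ran from 1.08 to 2.24 in MET_FLOX_canertinib and from 0.765 to 0.869 in MET_KO. The MET_FLOX_canertinib values at day 14 come from the array with the highest ratio of all, 2.24. The hepatocyte markers, among them Alb, Ttr and Apoa1, summed to 367537 to 440047 in MET_KO_canertinib and 365487 to 390089 in MET_FLOX. The Y-linked gene Eif2s3y gave deposited signals of 261 to 1370 over the 16 arrays. After quantile normalization it gave 433, 335, 415 and 476 in MET_KO_canertinib at days 0, 2, 7 and 14. In MET_FLOX_canertinib it gave 293, 231, 441 and 539, in MET_KO 1328, 744, 882 and 396, and in MET_FLOX 834, 1094, 973 and 401. Every array with a median below 216.35 thus gave a higher signal than every array above it. The cause was not tested.

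Met gave 1471, 980, 1322 and 1373 in MET_KO_canertinib at days 0, 2, 7 and 14, against 1537, 1354, 1839 and 1041 in MET_FLOX. The position of its probe sets against exon 16 was not analysed here, so these signals do not check the deletion. Egfr, the gene of the drug's main target, gave 2940, 6928, 6898 and 8708 in MET_KO_canertinib, against 2975, 4683, 6460 and 4858 in MET_FLOX. The ranges of both genes overlapped between the arms. The log2 difference over the days was -0.15 for Met (adjusted p = 0.692, limma) and 0.37 for Egfr (adjusted p = 0.485, limma). Erbb3, a partner of EGFR, gave 4036, 3749, 3115 and 5267 in MET_KO_canertinib, against 4159, 1878, 3424 and 3605 in MET_FLOX, and Hgf, the ligand of MET, gave 227, 191, 247 and 424, against 436, 380, 226 and 301. Neither passed the threshold (adjusted p = 0.284 and 0.693, limma). Of the sex chromosome genes, the Y-linked Eif2s3y, Uty and Kdm5d and the X-linked Xist had log2 differences of -0.89, -0.46, 0.68 and 0.53. None of them passed the threshold (adjusted p = 0.179, 0.218, 0.0981 and 0.296, limma). The only other probe set of Kdm5d had the opposite sign.

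Over the 4 days 34 genes differed between MET_KO_canertinib and MET_FLOX, 11 higher and 23 lower. These are 0.25% of the 13577 genes tested, 0.081% higher and 0.169% lower, at a Benjamini-Hochberg adjusted p below 0.05 in limma with arm and day as terms. In all, 2915 genes (21.5%) had an unadjusted p below 0.05, where 679 would by chance. The higher genes were led by Nfkbid, a nuclear inhibitor of NF-kappa-B, and included the citrate importer Slc13a5, the heparan sulfate proteoglycan Sdc4 and the MAPK cascade kinase Braf. The lower genes were led by the glutathione transferase Gstp3 and the carbohydrate kinase Shpk, and included the mitochondrial NAD kinase Nadk2. All 34 had the same sign at each of the 4 days, where 15.7% of all genes were higher and 12.1% lower at each day, and the choice of the genes by these values favours it.

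Nfkbid gave 295, 579, 318 and 507 in MET_KO_canertinib, 329, 348, 518 and 338 in MET_FLOX_canertinib, 145, 223, 401 and 72 in MET_KO, and 66, 46, 54 and 116 in MET_FLOX. Every MET_KO_canertinib array lay above every MET_FLOX array, and the signals of both drug arms overlapped. It rose 2.35 on the log2 scale (SE 0.43, adjusted p = 0.0477), a 5.11-fold difference on the signal plus 16. MET_FLOX signals lay under the array median, where the added 16 shrinks the fold.

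Sdc4, which holds growth factors such as hepatocyte growth factor at the cell surface, gave 5013, 5888, 4551 and 6486 in MET_KO_canertinib, 5153, 4249, 7039 and 6067 in MET_FLOX_canertinib, 3345, 2600, 2896 and 4210 in MET_KO, and 2254, 2015, 2397 and 3498 in MET_FLOX. The combined and MET_FLOX arms did not overlap, and the drug alone overlapped with the combination. The log2 difference was 1.12 (SE 0.17, adjusted p = 0.0333).

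Slc13a5, which brings citrate into hepatocytes for lipid synthesis, gave 998, 1199, 1180 and 2655 in MET_KO_canertinib, 995, 1307, 1112 and 1334 in MET_FLOX_canertinib, 780, 558, 674 and 1049 in MET_KO, and 630, 548, 552 and 570 in MET_FLOX. The combined arm was at the level of the drug alone at days 0 to 7 and stood apart at day 14. The log2 difference was 1.25 (SE 0.22, adjusted p = 0.0477).

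Braf gave 1660, 1946, 1789 and 2658 in MET_KO_canertinib, 1604, 1330, 1919 and 2176 in MET_FLOX_canertinib, 1250, 951, 1236 and 1589 in MET_KO, and 1257, 910, 1008 and 1112 in MET_FLOX. Combined and MET_FLOX arrays were again fully apart, and the difference was 0.89 (log2, SE 0.16, adjusted p = 0.0477). The 7 other higher genes had log2 differences between 0.83 and 1.44: Acad10, of the acyl-CoA dehydrogenase family, Agap1, a GTPase-activating protein of membrane traffic, the long non-coding RNA Miat, the chondroitin polymerizing factor Chpf, the membrane protein Sez6, the Golgi glycoprotein Glg1 and the secreted protease Htra3. Acad10 was at 1326, 1708, 2645 and 1403 in MET_KO without the drug, as high as in the combined arm, and the mean over all its probe sets gave a difference of -0.03 (adjusted p = 0.952, limma).

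Gstp3, which conjugates glutathione, gave 2636, 1582, 1433 and 1845 in MET_KO_canertinib, 2711, 1935, 1559 and 1912 in MET_FLOX_canertinib, 13007, 9225, 21337 and 2129 in MET_KO, and 21273, 6472, 17391 and 23155 in MET_FLOX. Both drug arms were low at every day, and so was MET_KO at day 14. Against MET_FLOX the combined arm had a log2 difference of -3.06 (SE 0.51, adjusted p = 0.0333). Gstp3 has close paralogs in the glutathione transferase family, and which of them its probe set also detects was not tested.

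Nadk2, which makes NADP in mitochondria, gave 1990, 1407, 2097 and 1004 in MET_KO_canertinib, 2263, 2302, 1756 and 1464 in MET_FLOX_canertinib, 4324, 3512, 4995 and 2805 in MET_KO, and 4189, 3619, 4177 and 3553 in MET_FLOX. All 8 drug arrays lay below all 8 arrays without the drug. The log2 difference of the combined arm was -1.30 (SE 0.17, adjusted p = 0.0333).

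Shpk, which phosphorylates the sugar sedoheptulose, gave 65, 26, 27 and 29 in MET_KO_canertinib, against 514, 342, 460 and 132 in MET_FLOX, a log2 difference of -2.76 (SE 0.46, adjusted p = 0.0333). In MET_FLOX_canertinib it gave 156, 29, 35 and 24. Signals of the combined arm were low throughout, and most of these signals lay so far under the array median that the size of the difference depends on the added 16.

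The other lower genes fell into several cellular roles. Gemin2, of the complex that assembles spliceosomal particles, fell by 1.84 (SE 0.28), the mRNA export factor Thoc6 by 2.13 (SE 0.40) and the nuclear pore gene Nup133 by 1.47 (SE 0.24) on the log2 scale. Sgms2, a sphingomyelin synthase, and Stard3, a cholesterol carrier of late endosomes, both fell by 1.54 (SE 0.25 and 0.28), and the phospholipase Abhd3 by 1.27 (SE 0.19). Ppp1r12c, a myosin phosphatase subunit, fell by 2.25 (SE 0.43) and Arhgap18 by 1.95 (SE 0.32). Lst1, a gene of leukocytes, fell by 2.09 (SE 0.39), Lrrc41 by 1.96 (SE 0.31), the iron-sulfur assembly gene Ciao2b by 1.43 (SE 0.23) and Rmdn1 by 1.25 (SE 0.23). The adjusted p of these 12 genes lay between 0.0333 and 0.048, and 8 further lower genes had log2 differences between -1.18 and -0.83.

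**Figure D1:**
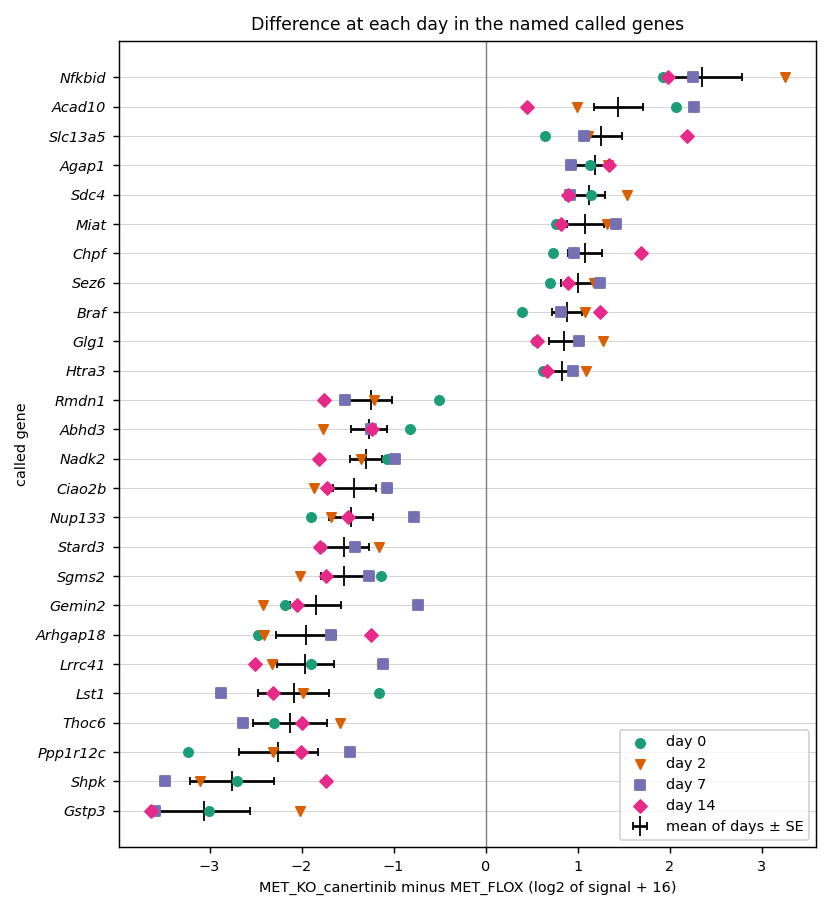
Log2 difference of MET_KO_canertinib minus MET_FLOX (x axis, log2 of signal plus 16) at each of the 4 days in the 26 named called genes (y axis), with the mean over days and its standard error from the model. All points of the 11 higher genes lie right of 0 and all points of the 15 lower genes left of it, a pattern that the choice of the genes favours.

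In 29 of the 34 genes no MET_KO_canertinib signal lay within the range of MET_FLOX. Over all genes the combined arm lay wholly above MET_FLOX in 5.1% and wholly below it in 3.71%. In the 5 genes that overlapped, Gemin2, Abhd3, Ciao2b, Sgms2 and Stard3, the low MET_FLOX array was that of day 14. More widely, the day 14 array of MET_FLOX had the lowest of its 4 signals in 14 of the 23 lower genes and the highest in 9 of the 11 higher genes. In MET_KO these counts were 17 and 9, in MET_KO_canertinib 12 and 9, and in MET_FLOX_canertinib 13 and 5. The share of all genes with such a day 14 array was not counted, so nothing particular to the called genes is read from these counts.

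The array set and the drug moved together at days 0, 2 and 7, so the pairs of those days cannot be told apart from the array set. When array set was added to the model, none of the 34 was called (adjusted p 0.0511 to 0.333, limma), and all 34 kept their sign. The drug part of the difference then rests on the day 14 arrays, 1 per arm. In that model 6 other genes were called. Among them were the steroid hydroxylase gene Cyp17a1 at 3.40 (adjusted p = 0.0158, limma) and the fatty aldehyde dehydrogenase gene Aldh3a2 at -2.59 (adjusted p = 0.00503, limma). Cyp17a1 differed by 3.94 at day 14 and by 0.58, 0.57 and 1.79 at days 0, 2 and 7. Aldh3a2 differed by -2.93 at day 14 and by -0.42, -0.67 and -0.43 at those days. The count of 34 was 0 without the day 0, 2 or 7 array of MET_FLOX or of MET_KO, and 411 without the day 14 array of MET_KO_canertinib.

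The comparison with each single blockade asks whether the combination went beyond its parts. These comparisons share the MET_FLOX arrays, so their values stand side by side without a measure of likeness. In the drug arm alone, MET_FLOX_canertinib minus MET_FLOX, the 11 higher genes had log2 differences of 0.41 to 2.24 and the 23 lower genes of -2.94 to -0.39. In MET_KO minus MET_FLOX the same genes gave -0.07 to 1.61 and -1.07 to 0.23. On average the combined arm was above both single arms in 9 of the 11 higher genes and below both in 19 of the 23 lower genes, against 31% and 26.8% of all genes. The genes were chosen for an extreme combined arm, which favours this rank, and nothing is read from it. The exceptions were Sdc4 and Acad10 among the higher genes and Abhd3, Sgms2, Dram2 and Hsbp1 among the lower ones.

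**Figure D2:**
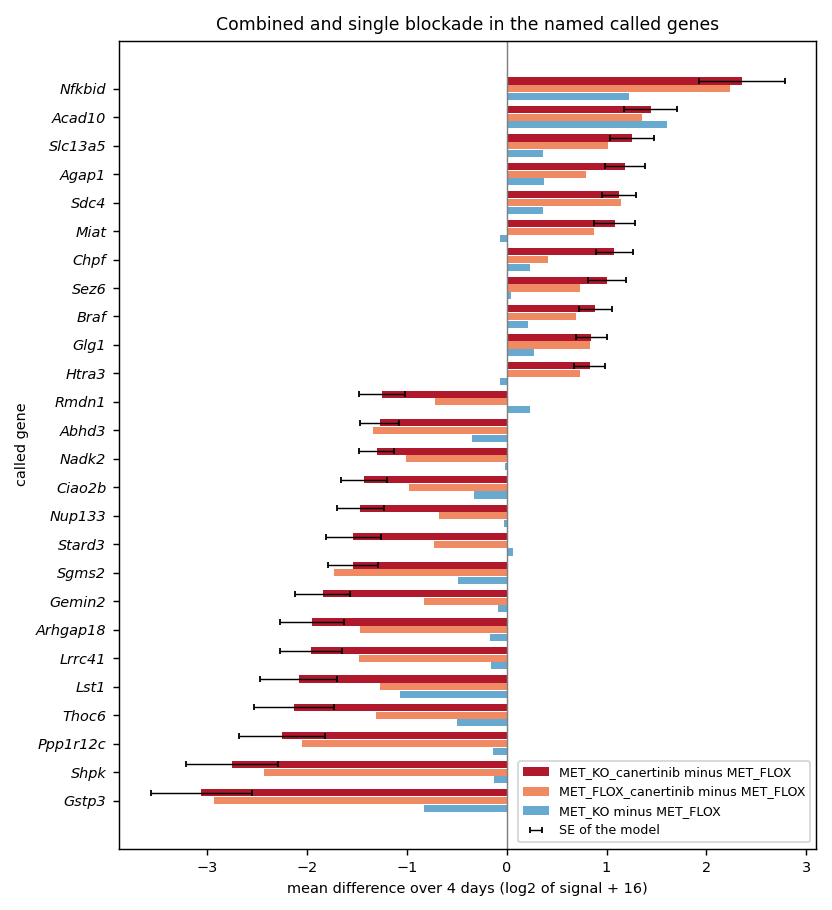
Mean log2 difference over 4 days (x axis, log2 of signal plus 16) against MET_FLOX in the 26 named called genes (y axis), for MET_KO_canertinib, MET_FLOX_canertinib and MET_KO, with the model's standard error on the combined bar. For Gstp3 the bars stand at -3.06, -2.94 and -0.83, and for Nadk2 at -1.30, -1.01 and -0.02.

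None of the 34 genes was called when MET_KO_canertinib was set against the mean of its single arms, which leaves out the MET_FLOX arrays (adjusted p 0.0925 to 0.956, limma). In that comparison 1 gene passed, 0.00737% of those tested, with 1517 (11.2%) at an unadjusted p below 0.05. The gene was Cyp17a1, a steroid 17-alpha-hydroxylase. Among whole comparisons against MET_FLOX, MET_KO called 0 genes in limma, with 286 (2.11%) at an unadjusted p below 0.05, and MET_FLOX_canertinib called 395 (2.91%), with 1.36% of genes higher and 1.55% lower.

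Cyp17a1 gave 3503, 4648, 6460 and 8762 in MET_KO_canertinib, 235, 629, 557 and 751 in MET_FLOX_canertinib, 614, 743, 485 and 349 in MET_KO, and 2337, 3135, 1851 and 557 in MET_FLOX. The combined arm was the highest at every day and its 4 signals lay above all 12 others, while both single arms lay under MET_FLOX at days 0, 2 and 7. Against the mean of the single arms the log2 difference was 3.38 (SE 0.40, adjusted p = 0.00997), and against MET_FLOX it was 1.72 (SE 0.46, adjusted p = 0.078). The genotype by canertinib interaction, the combined difference minus the sum of both single differences, was 5.05 (SE 0.66, adjusted p = 0.0199).

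Mmd2, a membrane protein gene, was the other of the 2 genes called for the interaction (0.0147%, with 630, 4.64%, at an unadjusted p below 0.05). It gave 3880, 4629, 9558 and 1411 in MET_KO_canertinib, 643, 754, 79 and 452 in MET_FLOX_canertinib, 378, 442, 567 and 119 in MET_KO, and 4931, 4776, 3824 and 783 in MET_FLOX. The combined arm thus overlapped with MET_FLOX, and both single arms lay below them at each day. As in Cyp17a1 at days 0, 2 and 7, MET_KO_canertinib and MET_FLOX thus stood on one side and both single arms on the other. The Met signals do not check the genotype labels, and with the labels MET_KO and MET_FLOX exchanged the interaction would be the sum of the genotype differences with and without the drug. Such an exchange was not tested. The interaction was 6.44 (SE 0.86, adjusted p = 0.0199) and the difference against MET_FLOX 0.44 (adjusted p = 0.698). The interaction count was 0 without any 1 array of MET_KO, without the day 0, 2 or 7 array of MET_FLOX, or without the day 2 array of MET_FLOX_canertinib, and 10 without the day 14 array of MET_KO_canertinib.

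**Figure D3:**
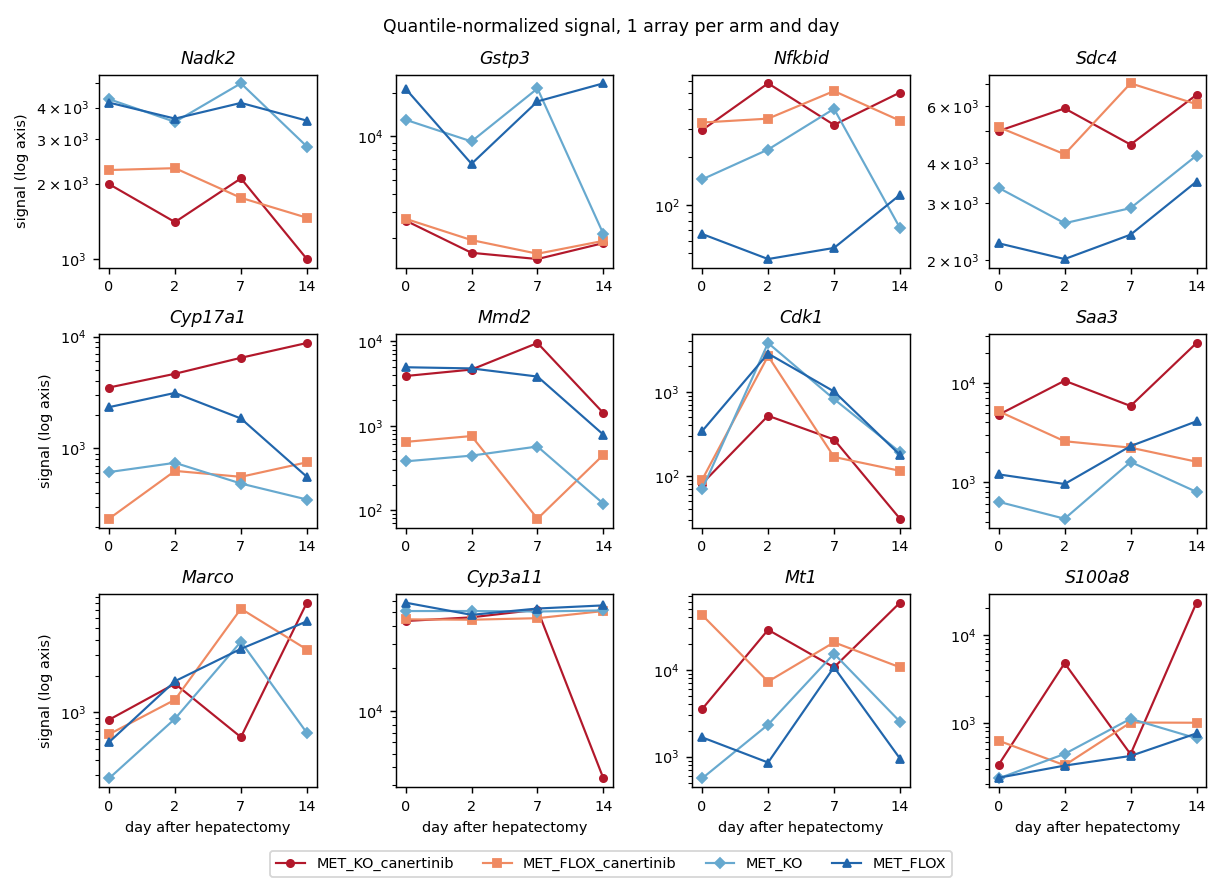
Quantile-normalized signal (y axis, log scale) by day after hepatectomy (x axis) in the 4 arms for 12 genes, 1 array per point. Gstp3 and Nadk2 lie low in both drug arms, Cyp17a1 is highest in MET_KO_canertinib at each day, Cdk1 at day 2 is 519 in that arm against 2849 in MET_FLOX, and Cyp3a11 and S100a8 stand apart at day 14.

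42 lists of genes were read against these results, with 682 of their genes tested. Of all lists, the NRF2 and glutathione list held 1 called gene, Gstp3, the list of NAD, NADP and retinoid enzymes held 1, Nadk2, and the others held none. At an unadjusted p below 0.05, where 12.2% of all genes were higher and 9.32% lower, the acute phase list had 12 of 26 genes higher and 0 lower, the neutrophil markers 6 of 11 and 0, the NRF2 and glutathione list 0 of 25 and 9, the S phase list 0 of 27 and 8, and the G2/M list 2 of 27 and 10. Over the days the medians were 0.67, 1.14, -0.35, -0.41 and -0.60 on the log2 scale in that order, against 0.06 over all genes. The members with the smallest p in lists without a call included Birc2, an inhibitor of apoptosis, at 0.99 (adjusted p = 0.0504), Saa3 at 2.34 (adjusted p = 0.0556), Ngp, a granule protein of neutrophils, at 1.58 (adjusted p = 0.0533) and Acot1, an acyl-CoA thioesterase, at -2.39 (adjusted p = 0.0533). Another was the centromeric histone gene Cenpa at 1.36 (adjusted p = 0.0504, limma), whose only other probe set had the opposite sign.

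Differences at a single day rest on 1 array per arm and carry no test, and a gene is counted as higher or lower where its log2 difference was at least 1. By that rule 866 genes were higher (6.38%) and 927 lower (6.83%) at day 0, 1692 (12.5%) and 1381 (10.2%) at day 2, 1101 (8.11%) and 1010 (7.44%) at day 7, and 1081 (7.96%) and 1365 (10.1%) at day 14. Median differences of all genes were 0.03, 0.15, 0.08 and -0.02. In these liver pieces fewer cells of a type and less RNA per cell cannot be told apart. Examples from the lists at single days were chosen after their values were seen.

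**Figure D4:**
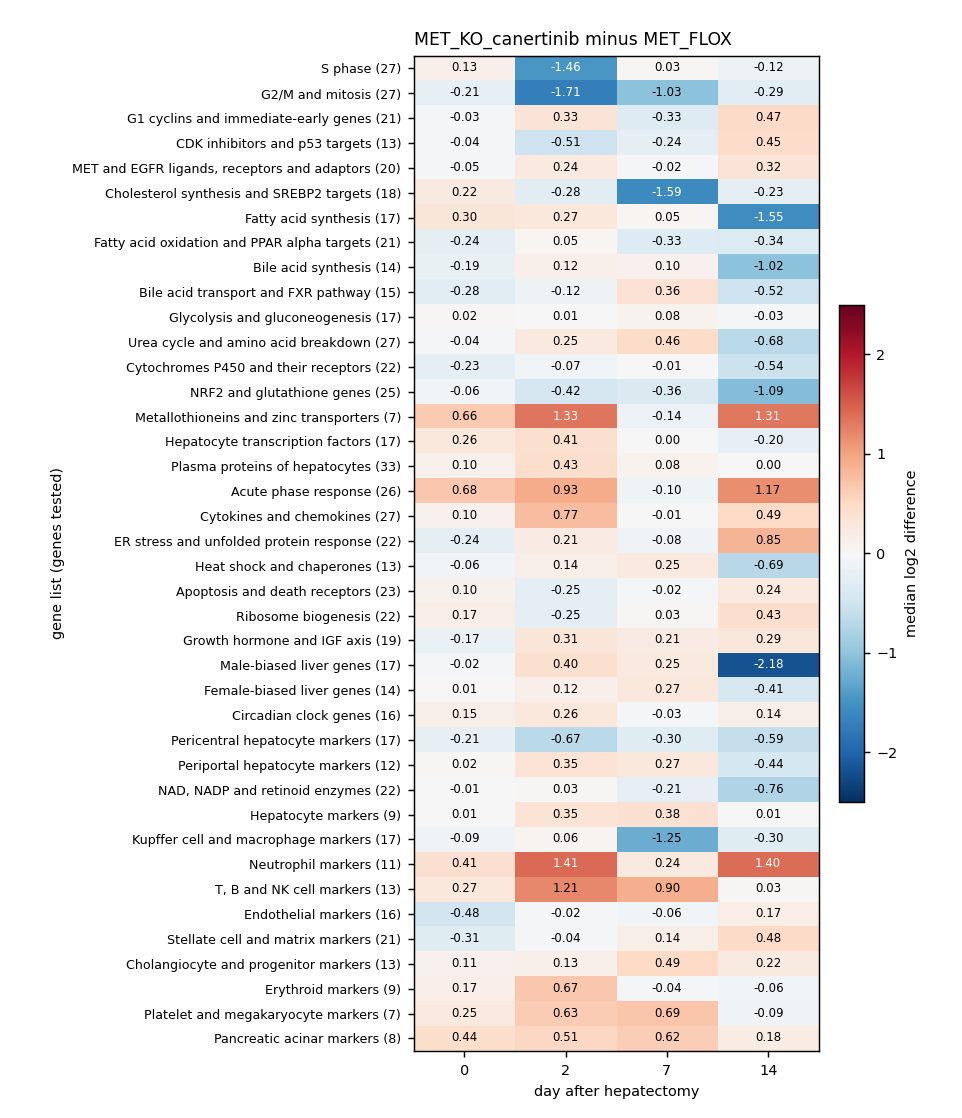
Median log2 difference of MET_KO_canertinib minus MET_FLOX over the tested genes of each list with at least 7 tested genes (rows, number tested in brackets) at each day (columns). The S phase and G2/M lists are lowest at day 2 with medians of -1.46 and -1.71, the Kupffer cell and cholesterol synthesis lists at day 7 with -1.25 and -1.59, and the fatty acid synthesis and male-biased lists at day 14 with -1.55 and -2.18. Another scaling turned the sign of 64 of the 168 medians of all 42 lists.

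At day 0, the day of the operation, acute phase genes stood out on the high side. These encode plasma proteins that the liver secretes in inflammation. Saa2, a serum amyloid A, gave 42533 in MET_KO_canertinib, 44179 in MET_FLOX_canertinib, 679 in MET_KO and 1465 in MET_FLOX, a log2 difference of 4.84 between the combined and MET_FLOX arms. Lcn2, an iron-siderophore binding protein, gave 31170, 50106, 540 and 1266 in the same order, a difference of 4.60. Both drug arms were high and both arms without the drug low. Of the 26 acute phase genes 8 were higher and 2 were lower by at least 1, and the median was 0.68 in the combined arm, 0.87 in MET_FLOX_canertinib and -0.41 in MET_KO. The median of the combined arm was 0.45 with the signals as deposited and 0.10 with each array centred on its median. The combined arm was the highest of the 4 in 7 of the 26 genes, 23.1% of all genes being so ranked. Among the genes with the largest differences on the low side were Ugt2b37, a glucuronosyltransferase, at 19 in MET_KO_canertinib and 612 in MET_FLOX, and Tbxas1, the thromboxane synthase, at 15 and 365 in those arms.

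At day 2, near the time of hepatocyte division after hepatectomy, genes of DNA replication and mitosis were lower in the combined arm than in any other. In the S phase list 20 of 27 genes were lower by at least 1 and 24 were the lowest of the 4 arms. In the G2/M list these counts were also 20 and 24 of 27. Over all genes 10.2% were lower by at least 1 and 23.5% were lowest in the combined arm. The S phase median was -1.46 for the combined arm, -0.20 for MET_FLOX_canertinib and 0.36 for MET_KO, and the G2/M medians were -1.71, 0.11 and 0.39 in the same order, all against MET_FLOX.

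Mcm6, a subunit of the replicative helicase, gave 133 in MET_KO_canertinib at day 2, 536 in MET_FLOX_canertinib, 1737 in MET_KO and 2276 in MET_FLOX. Uhrf1, which keeps DNA methylation through replication, gave 170, 751, 2559 and 1692 in the same order. In both, the drug alone stood between the combination and the arms without the drug. Among mitotic genes Ube2c, the ubiquitin-conjugating enzyme of the anaphase-promoting complex, gave 219, 1555, 3358 and 1938. Cdk1, the kinase that starts mitosis, gave 519, 2663, 3804 and 2849. For Cdk1 the single arms lay near or above MET_FLOX and the combined arm far below it. Of the 6 genes of both lists with higher signals in the combined arm, 4 were higher by at least 1: Mcm10 (4234 against 1813 in MET_FLOX), Pola1, a DNA polymerase subunit (346 against 158), Tpx2, a spindle assembly factor (1685 against 804), and Cenpa (896 against 233). The others were Ccne1, a cyclin of S phase entry (1054 against 935), and Foxm1, a transcription factor of mitotic genes (1111 against 882). Over the days the only other probe set of Cenpa had the opposite sign.

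Over the days Cdk1 gave 81, 519, 271 and 31 in MET_KO_canertinib, against 341, 2849, 1009 and 178 in MET_FLOX. The combined arm was below MET_FLOX at each day, and its log2 difference of -2.04 missed the threshold (adjusted p = 0.0556, limma). Ube2c gave 32, 219, 222 and 45 in MET_KO_canertinib, against 236, 1938, 565 and 188 in MET_FLOX, with a difference of -2.12 (adjusted p = 0.0632, limma).

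Because Cdk1 and Ube2c carried their lowest rank together at day 2, the 250 bases before their RefSeq start sites (GRCm38.p6) are shown, in lower case and 5′ to 3′ on the gene's strand. Capitals mark TTTGAA, the cell cycle homology region element, searched on both strands. It occurs in 16.0% of the 32851 RefSeq promoters of this length, and at least 2 times in 1.81%. The Cdk1 stretch (chr10:69352913-69353162, minus strand) holds 2 matches, and the Ube2c stretch (chr2:164769679-164769928, plus strand) holds 1, in reverse complement.
Cdk1: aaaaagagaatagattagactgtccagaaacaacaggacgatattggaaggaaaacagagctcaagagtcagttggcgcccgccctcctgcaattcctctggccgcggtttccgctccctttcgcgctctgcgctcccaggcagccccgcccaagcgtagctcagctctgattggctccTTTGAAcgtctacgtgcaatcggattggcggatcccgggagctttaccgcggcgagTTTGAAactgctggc
Ube2c: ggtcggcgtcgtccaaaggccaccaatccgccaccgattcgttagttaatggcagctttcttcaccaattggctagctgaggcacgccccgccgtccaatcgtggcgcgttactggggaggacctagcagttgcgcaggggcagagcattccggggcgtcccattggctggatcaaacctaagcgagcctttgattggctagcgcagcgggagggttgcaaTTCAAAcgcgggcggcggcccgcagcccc
The matches lie 71 to 66 and 15 to 10 bases before the start of Cdk1, and 29 to 24 bases before that of Ube2c.

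Inflammation genes and markers of blood cells were higher at day 2. In the acute phase list 22 of 26 genes were the highest of the 4 arms in MET_KO_canertinib, where 31.3% of all genes were, and the median was 0.93 in the combined arm, 0.62 in MET_FLOX_canertinib and -0.14 in MET_KO. Saa3, a serum amyloid A made also by macrophages, gave 10520, 2580, 427 and 956, and the endotoxin co-receptor gene Cd14 gave 4280, 1102, 632 and 576, each in the order MET_KO_canertinib, MET_FLOX_canertinib, MET_KO, MET_FLOX. The hepcidin gene Hamp went the other way, at 33476 in the combined arm and 73738 in MET_FLOX. Ighm, the heavy chain of IgM and a B cell marker, gave 7020, 1037, 204 and 152 in that order. Of the 13 T, B and NK cell markers 8 were higher by at least 1 and 5 were highest in the combined arm, with medians of 1.21 there and 1.14 in MET_FLOX_canertinib. Summed on each array, these markers ran from 5660 to 28630 in MET_KO_canertinib and from 3200 to 8033 in MET_FLOX. Ighm alone made up 19150 of the 28630, which was the sum at day 14, and the list median at that day was 0.03. Neutrophil markers other than Lcn2, which is also an acute phase gene, summed to 4455, 15222, 5755 and 54571 in MET_KO_canertinib at days 0, 2, 7 and 14, against 3583, 3551, 4317 and 7146 in MET_FLOX. Lcn2 alone gave 31170, 44755, 39380 and 62549 in MET_KO_canertinib, against 1266, 22357, 43671 and 10797 in MET_FLOX. The part of such cells in the results above was not tested.

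At day 7 markers of Kupffer cells, the resident macrophages of the liver, were lowest in the combined arm in 16 of 17 genes, where 22.7% of all genes were. Marco, a scavenger receptor, gave 622 in MET_KO_canertinib, 7221 in MET_FLOX_canertinib, 3850 in MET_KO and 3358 in MET_FLOX. Clec4f, a lectin of Kupffer cells, gave 1377, 7864, 3015 and 4715, and Cd163, a hemoglobin receptor of macrophages, gave 479, 4211, 1029 and 1163 in the same order. The drug alone was the highest arm for each of these genes and the combination the lowest. The list median was -1.25 in the combined arm, 0.77 in MET_FLOX_canertinib and -0.17 in MET_KO, and Ms4a7 was the exception at 556 in the combined arm against 301 in MET_FLOX. The order of the arms differed by day, and Marco gave 867, 1724, 622 and 8108 in MET_KO_canertinib, against 565, 1811, 3358 and 5677 in MET_FLOX. The macrophage gene Aif1 and the complement factor properdin gene Cfp, outside the list, were at 23 and 111 in MET_KO_canertinib and at 640 and 2096 in MET_FLOX at day 7.

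Cholesterol synthesis genes were low at day 7 in both drug arms. Of 18 genes 11 were lower by at least 1 in the combined arm, where 7.44% of all genes were, and 2 were lowest there. Mvk, the mevalonate kinase, gave 90 in MET_KO_canertinib, 64 in MET_FLOX_canertinib, 825 in MET_KO and 1427 in MET_FLOX. Hmgcs1, which makes the precursor HMG-CoA, gave 6455, 3756, 10428 and 20867 in the same order. The medians of -1.59 in the combined arm and -2.20 in MET_FLOX_canertinib stood against -0.69 in MET_KO. At day 14 the median of the combined arm was -0.23.

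Moxd1, a monooxygenase gene that is higher in male mouse liver, was far higher in the combined arm at days 2 and 7. At day 2 it gave 1681 in MET_KO_canertinib, 31 in MET_FLOX_canertinib, 35 in MET_KO and 24 in MET_FLOX, and at day 7 it gave 2221, 61, 49 and 62. At both days the other 3 arms were far under the array median. At day 0 Moxd1 gave 16, 47, 149 and 116 in the same order, with the combined arm the lowest.

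At day 14, when the arms shared an array set, several genes with high signals in the other arms were far under the array median in the combined arm. Car3, a carbonic anhydrase of muscle, fat and liver, gave 45 in MET_KO_canertinib, 19150 in MET_FLOX_canertinib, 37444 in MET_KO and 29239 in MET_FLOX. Inmt, a methyltransferase of indole amines, gave 36, 10991, 16185 and 17831, and the aldehyde oxidase gene Aox3 gave 21, 13158, 13953 and 8050 in the same order. For each of these the other 3 arms kept high signals. Signals of the combined arm this far under the array median leave the size of the fold to the added 16. Of all genes 32.5% were lowest in the combined arm at this day.

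Lipid synthesis genes were low at day 14 in the combined arm. Of 17 fatty acid synthesis genes 14 were lower by at least 1, where 10.1% of all genes were, and 14 were the lowest of the 4 arms. The median was -1.55 in the combined arm, -0.06 in MET_FLOX_canertinib and -0.22 in MET_KO. Scd1, the stearoyl-CoA desaturase, gave 4173, 34515, 53002 and 51403, and Fasn, the fatty acid synthase, gave 2075, 6059, 4443 and 6807. Srebf1, the transcription factor of the pathway, gave 2399, 8096, 6843 and 8419. Lpin1, a phosphatidate phosphatase, went the other way at 4631 in the combined arm and 2788 in MET_FLOX.

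Bile acid genes were low at day 14 too. Of 14 synthesis genes 7 were lower by at least 1 and 11 were lowest in the combined arm, with a median of -1.02. Cyp7a1, the rate-limiting enzyme of bile acid synthesis, gave 351, 3541, 901 and 5515, and Abcb11, the bile salt export pump, gave 1233, 12680, 13328 and 9261. At the days before, Cyp7a1 had been at 3856, 3283 and 3148 in MET_KO_canertinib, against 2133, 1327 and 1804 in MET_FLOX, so the order of the arms was the opposite at days 0, 2 and 7. The feedback repressor gene Nr0b2 gave 900 in the combined arm and 872 in MET_FLOX.

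Genes of drug metabolism and glutathione were lower in part. Cyp3a11, a main drug-metabolizing cytochrome, gave 3341, 50886, 51403 and 55787 at day 14, and was between 43255 and 58311 on every array of days 0 to 7. Gsta4, which clears lipid peroxidation products, gave 33, 2203, 2168 and 2931. Of 22 cytochromes P450 and their receptors 14 were lowest and 5 highest in the combined arm, and 7 were lower and 2 higher by at least 1 (median -0.54). Of 25 NRF2 and glutathione genes 16 were lowest and 6 highest, and 14 were lower by at least 1 (median -1.09). These 14 were Gclc and Gclm, which make glutathione, the microsomal transferase Mgst3 and 11 other glutathione transferases. The NRF2 targets Nqo1, Srxn1, Txnrd1 and Hmox1 gave 326, 1099, 4847 and 2221 in MET_KO_canertinib, against 293, 999, 3814 and 1832 in MET_FLOX.

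Genes with higher expression in male than in female mouse liver had the lowest list median of the day, -2.18, with 11 of 17 genes lower by at least 1 and 13 lowest in the combined arm. The list of genes with higher expression in female liver had a median of -0.41. Of its 14 genes 3 were higher and 3 lower by at least 1, and 4 were highest and 6 lowest in the combined arm. Mup3, a major urinary protein, gave 546, 16409, 39101 and 39101, and Cyp4a12a, a fatty acid hydroxylase, gave 612, 6368, 16900 and 14653. Mup3 belongs to a family of near-identical genes, and which of them its probe set also detects was not tested. Moxd1 and Egfr, also in the list, were higher in the combined arm than in MET_FLOX. In the same order of the arms Moxd1 gave 696, 596, 32 and 33, and Egfr gave 8708, 13238, 8013 and 4858. The drug alone was thus near the combined arm in Moxd1 and above it in Egfr.

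Of the 27 urea cycle and amino acid genes 10 were lower and 2 higher by at least 1. Otc, an enzyme of the urea cycle, gave 2035, 14298, 18619 and 13975, while Mat1a, which makes S-adenosylmethionine, gave 45296, 18967, 20230 and 17658. The list thus held members at both extremes. Alb, which encodes albumin, gave 60752, 75501, 71106 and 71106, and the hepatocyte marker list had a median of 0.01 with 1 of 9 genes lower by at least 1.

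On the high side at day 14 were acute phase and ER stress genes and a part of the metallothionein and zinc transporter list. Of 26 acute phase genes 16 were higher by at least 1, where 7.96% of all genes were, and 22 were highest in the combined arm, where 29.6% of all genes were. Socs3, the feedback inhibitor of IL6 signalling, gave 5937, 688, 429 and 328, and Cd14 gave 16832, 1193, 816 and 1326. The median was 1.17 in the combined arm, 0.03 in MET_FLOX_canertinib and -0.44 in MET_KO. Saa3 over all days gave 4772, 10520, 5849 and 25243 in MET_KO_canertinib, against 1195, 956, 2305 and 4097 in MET_FLOX. At day 14 the plasma scavengers Hp and Hpx differed by -0.04 and 0.00, and Crp by -0.24.

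Neutrophil markers were higher at day 14 along with these genes. S100a8, a calcium-binding alarmin of neutrophils, gave 23256, 1004, 668 and 760, and S100a9, its partner, gave 12363, 857, 647 and 656. In 10 of 11 markers the combined arm was the highest, with a median of 1.40. Lcn2, which is in both lists, gave 62549, 8633, 4544 and 10797.

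Of 22 ER stress genes 8 were higher by at least 1 and 18 were highest in the combined arm, with a median of 0.85. The chaperone Hspa5 gave 26937, 13566, 9624 and 10007, and Creld2, which is induced when unfolded protein builds up, gave 3335, 715, 701 and 726. Ern1, a sensor of unfolded protein, went the other way at 396 in the combined arm and 1234 in MET_FLOX. Of 21 stellate cell and matrix markers 15 were highest in the combined arm, among them the basement membrane collagen Col4a1 at 4763, 1017, 1183 and 1323.

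Igfbp1, a secreted binding protein of insulin-like growth factors, gave 54375, 8590, 1105 and 1719 at day 14. Over the days it gave 510, 19622, 6774 and 54375 in MET_KO_canertinib, against 1172, 3167, 7921 and 1719 in MET_FLOX. It was thus lower in the combined arm at days 0 and 7 and higher at days 2 and 14.

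**Figure D5:**
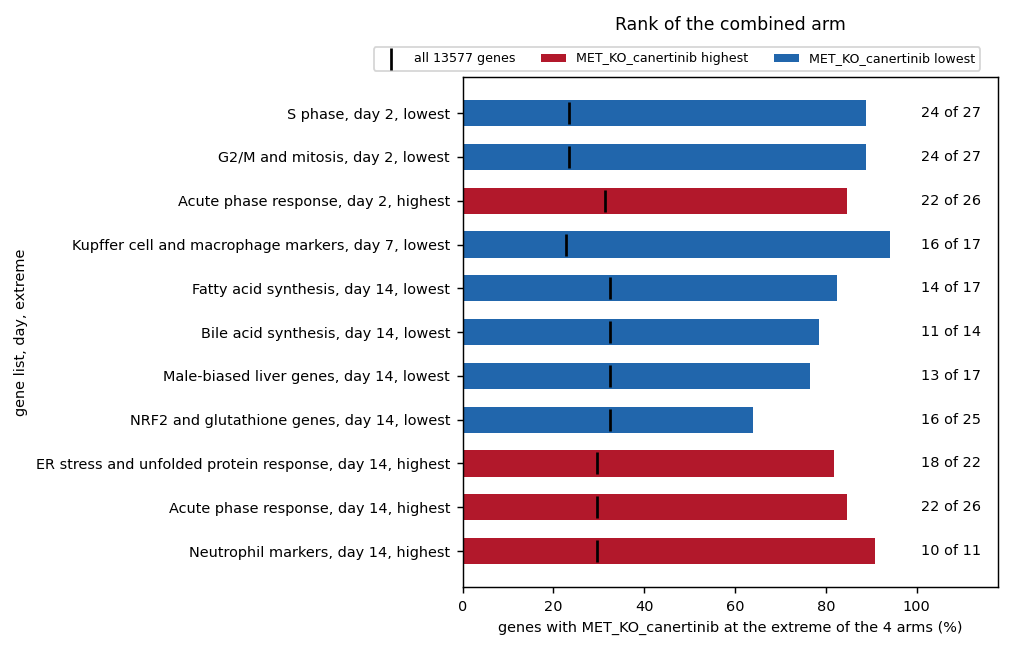
Share of the tested genes of a list (x axis, %) in which MET_KO_canertinib had the highest or the lowest signal of the 4 arms at the day named (y axis), with the same share over all 13577 genes as a black mark. The counts run from 16 of 25 for the NRF2 and glutathione genes to 16 of 17 for the Kupffer cell markers.

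Mt1 and Mt2 encode metallothioneins, small proteins that bind zinc and copper, and were far higher in the combined arm at day 14. Mt1 gave 3525, 28790, 10652 and 59039 in MET_KO_canertinib, 42533, 7308, 20655 and 10672 in MET_FLOX_canertinib, 563, 2335, 15303 and 2530 in MET_KO, and 1669, 857, 10691 and 952 in MET_FLOX. The combined arm was above MET_FLOX at days 0, 2 and 14 and just below it at day 7, and the drug alone was the highest arm at days 0 and 7. Mt2 gave 2327, 25124, 11358 and 48416 in MET_KO_canertinib, against 872, 935, 12527 and 1255 in MET_FLOX. Over the days neither passed the threshold, with log2 differences of 3.01 (adjusted p = 0.105, limma) and 2.81 (adjusted p = 0.116, limma). Slc39a14, a zinc importer of inflamed liver, gave 16570 in the combined arm and 2927 in MET_FLOX at day 14. Of the 7 tested genes of the metallothionein and zinc transporter list 4 were highest and 3 lowest in the combined arm at that day. Over all genes 29.6% were highest and 32.5% lowest.

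Because Mt1 and Mt2 moved together, the 250 bases before their RefSeq starts (GRCm38.p6, both on the plus strand) are given in the same form, with capitals for TGCNCNC, a relaxed form of the core of metal response elements, searched on both strands. At least 1 match occurs in 44.4% of RefSeq promoters of this length and at least 5 in 0.344%. Mt1 (chr8:94178839-94179088) holds 1 match, and Mt2 (chr8:94172368-94172617) holds 5. Bases on either side of these stretches were not searched, so the counts do not compare all such elements of both genes.
Mt1: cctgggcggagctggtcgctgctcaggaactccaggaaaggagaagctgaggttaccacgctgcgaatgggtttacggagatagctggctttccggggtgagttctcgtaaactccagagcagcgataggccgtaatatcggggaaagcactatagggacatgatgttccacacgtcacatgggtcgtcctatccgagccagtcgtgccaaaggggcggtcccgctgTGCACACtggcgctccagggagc
Mt2: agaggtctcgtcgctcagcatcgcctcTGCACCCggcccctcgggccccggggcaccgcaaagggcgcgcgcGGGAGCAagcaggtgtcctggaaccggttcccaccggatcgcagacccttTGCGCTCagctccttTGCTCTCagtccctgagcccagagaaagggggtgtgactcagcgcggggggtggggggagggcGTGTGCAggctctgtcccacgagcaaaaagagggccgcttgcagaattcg
A match is a description of these letters and not a measured binding site.

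Counts and list medians at single days moved with the scaling. As deposited, 1394, 2845 and 1995 genes were higher by at least 1 at those days, and with each array centred on its median 1581, 2569 and 1929 were lower. The 34 calls became 236 higher and 155 lower as deposited, and 110 higher and 1090 lower with median centring, and over all genes the median difference was then 0.15 and -0.20. Of all 168 list medians at single days 64 changed sign as deposited or with median centring, among them fatty acid synthesis at day 2 (0.27, and -0.39 with median centring) and the urea cycle and amino acid list at day 7 (0.46 and -0.09). Median centring shifts all genes of an array alike. The medians given above for the cell cycle lists at day 2, the Kupffer cell and cholesterol lists at day 7 and the fatty acid, bile acid, NRF2, male-biased, ER stress, acute phase and neutrophil lists at day 14 kept their sign.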

How the data were processed

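The authors deposited linear signal intensities of Affymetrix probe sets, made with MAS5 per the submitters' processing notes, with no version stated in the sources used here. Per the labels' protocols, 6 ug of total RNA was labelled for each array. Each of the 16 deposited arrays had a 2% trimmed mean of 500.0. The 45101 probe sets included 64 controls, 932 annotated with several genes and 9160 with none, all left out, and 34945 had 1 gene in the platform annotation.

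The intensities were quantile-normalized and turned to log2 after adding 16. Probe sets above their own array's median in at least 4 arrays were kept (22317), and each gene was read from its brightest probe set on average (13577 genes). Genes were fitted with limma 3.58.1 in R 4.3.3 on all 16 arrays, with arm and day as terms (9 residual degrees of freedom) and an intensity trend, in two-sided tests with Benjamini-Hochberg adjustment over all genes. Day pairs the arrays by design, so it is a block of the reported fit. With 4 pairs an exact paired permutation test of 1 gene cannot go below p = 0.125. Any course over days that is particular to 1 arm enters the error. The number of arrays limits the precision, and the median standard error was 0.261.

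Named genes were the up to 15 largest in each direction among called genes with 1 sign at all days, without 2 clone names, the called members of each list or else the one with the smallest p, the genes called in the other comparisons, Met, Egfr, Erbb3, Hgf and the sex chromosome genes, and the 5 largest differences in each direction at each day. Not every list member or single-day gene that met these rules is given in the text, and those given were a further choice. Further genes of the lists were named as examples of a day. The members, the lists and the alternatives were chosen with earlier results of these data known. Of 865 list entries 786 matched a probe set. Promoters came from RefSeq (GRCm38.p6). On simulated data with 13577 genes, the fit of this comparison recovered 77% of genes changed by a log2 of 1.5 and 99% of those changed by 3, with 13 false calls. The simulated arrays had independent noise and no array sets, so these figures do not measure how the fit performs on the real arrays. Alternatives covered scaling, pseudocount, filter, probe set choice, trend, day block, array set, the Gapdh ratio and leaving out arrays.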

Additional observations from a re-analysis of the deposited data

Results flagged for a closer look

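For 2 genes the genotype difference depended on the drug, by the interaction test of limma: Cyp17a1 at 5.05 (log2, adjusted p = 0.0199) and Mmd2 at 6.44 (log2, adjusted p = 0.0199). By the signals given above, the interaction was positive at each of the 4 days in both, which the choice of the genes by these same values favours. With the labels MET_KO and MET_FLOX exchanged it would be the sum of 2 genotype differences, which can also have 1 sign at every day, and such an exchange was not tested.

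For the genes named from the comparisons over all days and for Met, Egfr, Erbb3, Hgf and 4 genes of the sex chromosomes, 72 sets of the 4 arrays of an arm were examined. In 6 of them the gap of 1 array to the others, as a share of the arm's range, exceeded Dixon's critical value, and chance gives about 4. In MET_KO_canertinib, Shpk was at 65 at day 0 and at 26 to 29 on the other arrays. The other 5 were MET_FLOX arrays. At day 14 Chpf was at 536 (others 435 to 447), Stard3 at 183 (864 to 921), Ciao2b at 787 (1710 to 1763) and Mmd2 at 783 (3824 to 4931). At day 2 Lrrc41 was at 627 (729 to 749).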

How the results depend on the processing

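Scaling moved the number of genes called for MET_KO_canertinib minus MET_FLOX. The 34 calls became 391 with the signals as deposited (60.4% higher, against 32.4%; 34 shared) and 1200 with each array centred on its median (9.17% higher; 30 shared). They became 124 with pseudocount 64, 78 with a filter of at least 8 arrays, and 225 with the mean over all probe sets (23 shared). Without day as the replicate block no gene was called (a count of 0), with 2397 at an unadjusted p below 0.05. With the array set as a term 6 were called (0 shared), and with the 8 arrays of both arms alone 0, with 2452 at an unadjusted p below 0.05. Leaving out arrays or days gave 0 to 1207. The count was 0 without day 0, 2 or 7 of MET_FLOX or of MET_KO, or without day 2 or 7 of all arms. It was 1 without day 2 of MET_KO_canertinib or of MET_FLOX_canertinib or day 0 of all arms, 2 without day 14 of MET_FLOX and 3 without day 7 of MET_FLOX_canertinib. It was 5 and 12 without day 0 or 7 of MET_KO_canertinib, 123 without day 14 of MET_KO, 281 without day 14 of MET_FLOX_canertinib, 411 without day 14 of MET_KO_canertinib and 1207 without day 14 of all arms. Of the 26 named called genes, 25 kept their sign under every alternative that held them, and Acad10 was at -0.03 with the mean over its probe sets. With the Gapdh 3' to 5' ratio as a covariate 6 of the 26 were called. Against the mean of the single arms, 26 genes were called with median centring, 2 with pseudocount 64, 2 with the mean over probe sets, 2 with the array set, and 0 to 7 on leaving out arrays. For the interaction the counts were 4 with the Gapdh covariate, 1 with the mean over probe sets, 0 without the trend (642 at an unadjusted p below 0.05) and 0 to 10 on leaving out arrays. MET_KO minus MET_FLOX gave 0 to 2 on leaving out arrays. MET_FLOX_canertinib minus MET_FLOX gave 911 as deposited, 1530 with median centring, 614 with the mean over probe sets and 227 without the trend. It gave 26 without the replicate block, 17 with the array set, 4 with the Gapdh covariate and 0 to 2006 on leaving out arrays. At days 0, 2 and 7 the genes higher by at least 1 were 1394, 2845 and 1995 as deposited, and the genes lower by at least 1 were 1581, 2569 and 1929 with median centring, an alternative chosen after seeing the data. Beyond the fewer arrays of the fits that leave some out, the cause was not tested.

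Each arm had 1 array per day, so no value at a day has a replicate. Array set and drug moved together at days 0, 2 and 7 and cannot be told apart there, and the Gapdh ratio was higher in MET_KO_canertinib than in MET_FLOX on every array. Differences of signals under the array median, such as those of Shpk and Nfkbid, depend on the added 16. Of 30 other probe sets of the called genes 22 had the sign of the one used. Those with the opposite sign belonged to Acad10, Agap1, Arhgap18, Braf, Glg1, Ppil2 and Rmdn1. For Acad10, Agap1, Arhgap18 and Ppil2 this was the only other probe set.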
